A study of Arabidopsis with 14 samples.

Results

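Nuclear genes for the photosystems, their antennae, plastocyanin, the Rieske protein and the small subunit of Rubisco were followed through all 14 mRNA-Seq libraries of the series. Members were chosen by gene name alone, as the rows whose symbol starts with LHC, Lhca, Lhcb, PSA or PSB followed by a letter, RBCS, PETE or PETC. This matched 46 of 37980 genes listed, and each of the 46 was found in the RefSeq annotation of TAIR10.1. Of these, 44 are photosynthesis genes, comprising 9 antenna genes of photosystem II (LHCII antenna), 6 antenna genes of photosystem I (LHCI antenna), 11 subunits of photosystem II, 12 subunits of photosystem I, 2 electron carriers and 4 Rubisco small subunits. The other 2 share only the letters of the name. PSAT (AT4G35630) encodes a phosphoserine aminotransferase of serine synthesis and PSAT1 (AT1G04010) a phospholipid sterol acyl transferase, and both are counted apart.

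The libraries come from whole 10-day-old seedlings of Arabidopsis thaliana, Col-0, grown under SD conditions (8 h of light and 16 h of dark) on medium with sucrose. Libraries labelled AtC3H3 OX, libraries labelled AtC3H26 OX and WT libraries were each made from seedlings kept for 1, 2 and 4 h on filter paper soaked with NaCl at 150 mM, with 2 replicates per genotype, and the methods describe RNA of these hours as combined for WT and the AtC3H3 line. The reference libraries are from untreated seedlings of the same genotypes, 2 replicates for each line and 4 for WT, where WT comes as 2 sets of 2 that the labels number 1 and 2 without tying either to a line. In both lines a CCCH zinc-finger protein gene, AtC3H3 or its paralog AtC3H26, is fused to an HA tag and driven by a modified CaMV 35S promoter in the Col-0 background. The methods name T3 homozygous lines, and the number of lines behind the sequenced libraries is not given in the sources used here. Transfer to the filter paper, the hours on it and NaCl cannot be told apart, since the untreated seedlings are labelled as having had no treatment.

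The 2 zinc-finger genes that name the lines serve as a check of the labels. AtC3H3 (AT1G04990, listed as F13M7.1) had 14.8 and 13.5 FPKM under the AtC3H3 OX label and 20.7 and 23.01 FPKM in NaCl-treated WT, at -0.59 (SE 0.08, adjusted p = 0.0252) on the log2 scale, and 4.204 and 4.86 against 5.72, 5.37, 6.46 and 5.596 FPKM untreated. AtC3H26 (AT2G32930, listed as ZFN2) had 5.11 and 4.39 FPKM under the AtC3H26 OX label and 7.97 and 7.498 FPKM in NaCl-treated WT, at -0.60 (SE 0.10, adjusted p = 0.0286) on the log2 scale, and 2.51 and 2.34 against 2.81, 2.57, 2.94 and 3.53 FPKM untreated. In these libraries neither transcript was higher than in WT in its line, so the groups are called by their labels throughout. The study describes picking its AtC3H3 OX lines by RT-PCR of the AtC3H3 transcript. It also shows qRT-PCR of this transcript over hours of NaCl treatment, for seedlings of WT and of AtC3H3 OX lines. Both are separate measurements that are not analysed here. The unit is FPKM, fragments scaled to transcript length and to the mapped fragments of the library. Levels can be compared between genes, but between libraries only as far as their FPKM sums agree, so small changes depend on the scaling. In the AtC3H3 OX-labelled line these sums were 725473 and 729899 with NaCl against 672979 and 689301 untreated. The FPKM of a library summed to 665439 to 729899, the relative depth estimated from low values ranged from 0.635 to 1.07, and Pearson's r between the 2 replicates of a group was 0.989 to 0.991 across genes, which are not independent replicates.

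Light is captured in chloroplasts by chlorophyll-binding antenna proteins, which pass the energy to photosystem II and photosystem I in the thylakoid membrane. Electrons move from photosystem II through the cytochrome b6f complex, which holds the Rieske protein, and through plastocyanin to photosystem I, and the reducing power is used in the Calvin cycle, where Rubisco fixes carbon dioxide. The reaction centre proteins are encoded in the chloroplast, whereas the antenna proteins, many peripheral subunits and the Rubisco small subunit are encoded in the nucleus, often by several gene copies. Transcripts of these nuclear genes are known to depend on light, the circadian clock, sugars and stress.

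The 44 photosynthesis genes were among the most abundant transcripts of the seedlings. Ranked by median FPKM over the 14 libraries, they made up 12 of the highest 20 genes, 25 of the highest 50 and 37 of the highest 100. RBCS1A was the highest member, with a median of 6719 FPKM, followed by the LHCI antenna gene LHCA4 with 3632 FPKM and the LHCII antenna gene LHCB3 with 3467 FPKM. PSBP-2 and LHCB4.3 stood far below the rest, with medians of 2.02 and 6.81 FPKM, and no member was listed at 0 in any library. Together the 44 genes took 8.88% and 8.98% of the FPKM sum in AtC3H3 OX-labelled libraries with NaCl, against 10.7% and 10.6% untreated. In AtC3H26 OX-labelled libraries they took 8.60% and 8.90% with NaCl, against 11.0% and 10.7% untreated. In WT they took 8.43% and 8.48% with NaCl, against 12.3% and 12.03% in untreated set 2 and 10.4% and 10.6% in untreated set 1. Every NaCl library lay below every untreated library, and within the untreated libraries both of WT set 2 lay above the other 6. Because these are bulk samples, fewer green cells and less of these transcripts per cell cannot be told apart.

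**Figure D1:**
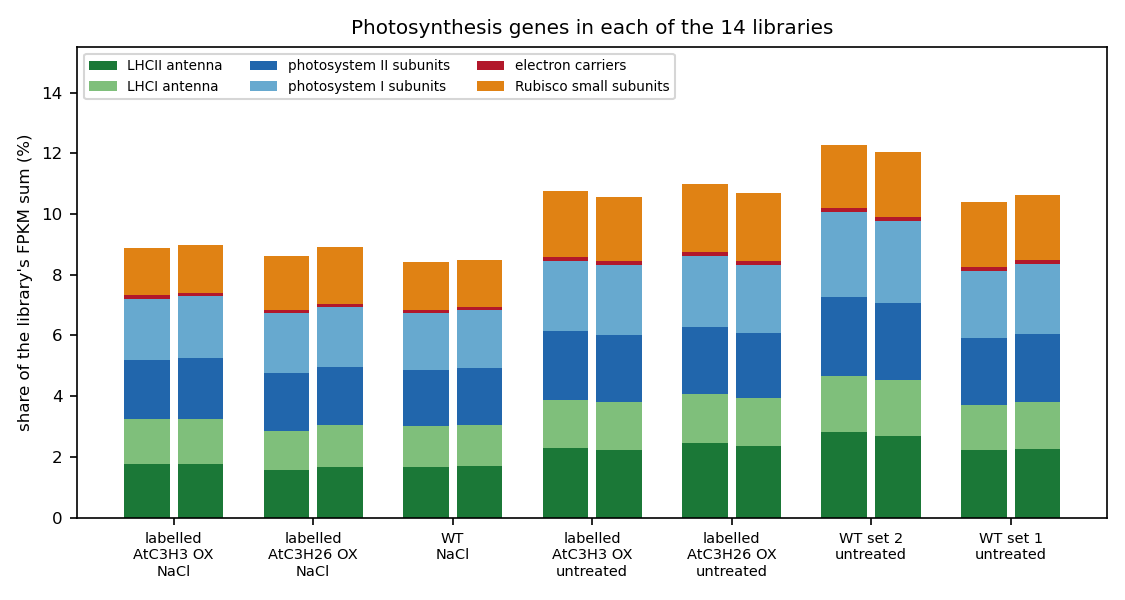
Stacked bars give the summed FPKM of each gene family as a percentage of the library's FPKM sum (vertical axis), 1 bar per library, with the 2 replicates of a group side by side. The 6 NaCl libraries reach 8.43% to 8.98%, below the 8 untreated libraries, and the untreated WT set 2 is the highest at 12.3% and 12.03%.

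To see which members carried this difference, NaCl-treated and untreated libraries of each genotype were compared gene by gene with limma on log2(FPKM + 1), and a gene was called at an adjusted p under 0.05. In the line labelled AtC3H3 OX, 24 of the 44 members fell, 6 rose and 14 were not called, with a median log2 fold change of -0.15. In the line labelled AtC3H26 OX, 22 fell, 1 rose and 21 were not called, with a median of -0.20. In WT, 27 fell, none rose and 17 were not called, with a median of -0.37. Over all genes tested, 29.9% fell and 31.4% rose in the line labelled AtC3H3 OX, 26.4% fell and 29.2% rose in the line labelled AtC3H26 OX, and 25.5% fell and 25.6% rose in WT, with medians between -0.02 and 0.00. Members are abundant genes, and among all genes with a mean of at least 100 FPKM, members included, 48.3% fell in the line labelled AtC3H3 OX, 30.9% in the line labelled AtC3H26 OX and 38.9% in WT. The members' shares that fell were 54.5%, 50% and 61.4% in the same order. With TPM scaling, which gives every library the same sum, the members' medians were -0.24, -0.26 and -0.40 in that order. Those of all genes were then -0.09, -0.06 and -0.05.

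The 3 salt comparisons share no library, so their calls can be set side by side. Of the 44 members, 19 (43.2%) fell in each of the 3 genotypes, against 3406 of the 19548 genes tested in all 3 (17.4%). These 19 comprise 7 of the 9 LHCII antenna genes, 2 LHCI antenna genes, 4 subunits of photosystem I, 3 of photosystem II, PETE1, and 2 Rubisco small subunit genes. Another 12 members fell in none, and the share of all genes that did so was not computed, so this count cannot be read as many or few. The LHCII antenna family leaves out the 5 LHCB1 genes, which have other names and held none called lower in the 3 genotypes. These 5 summed to 25859 to 30019 FPKM with NaCl and 21940 to 33935 FPKM untreated, above the family's 11092.5 to 20272 FPKM. The WT counts depend on the untreated libraries used, with 40 members lower and none higher against set 2 alone (median -0.48), where 25.9% of all genes tested were lower and 28.8% higher. Against set 1 alone, 37 were lower and 1 higher (median -0.28), where 33.2% of all genes tested were lower and 30.2% higher. Without replicate 1 or without replicate 2 of the NaCl-treated WT, the members' median in WT was -0.38 in both cases, beside -0.03 over all genes tested.

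**Figure D2:**
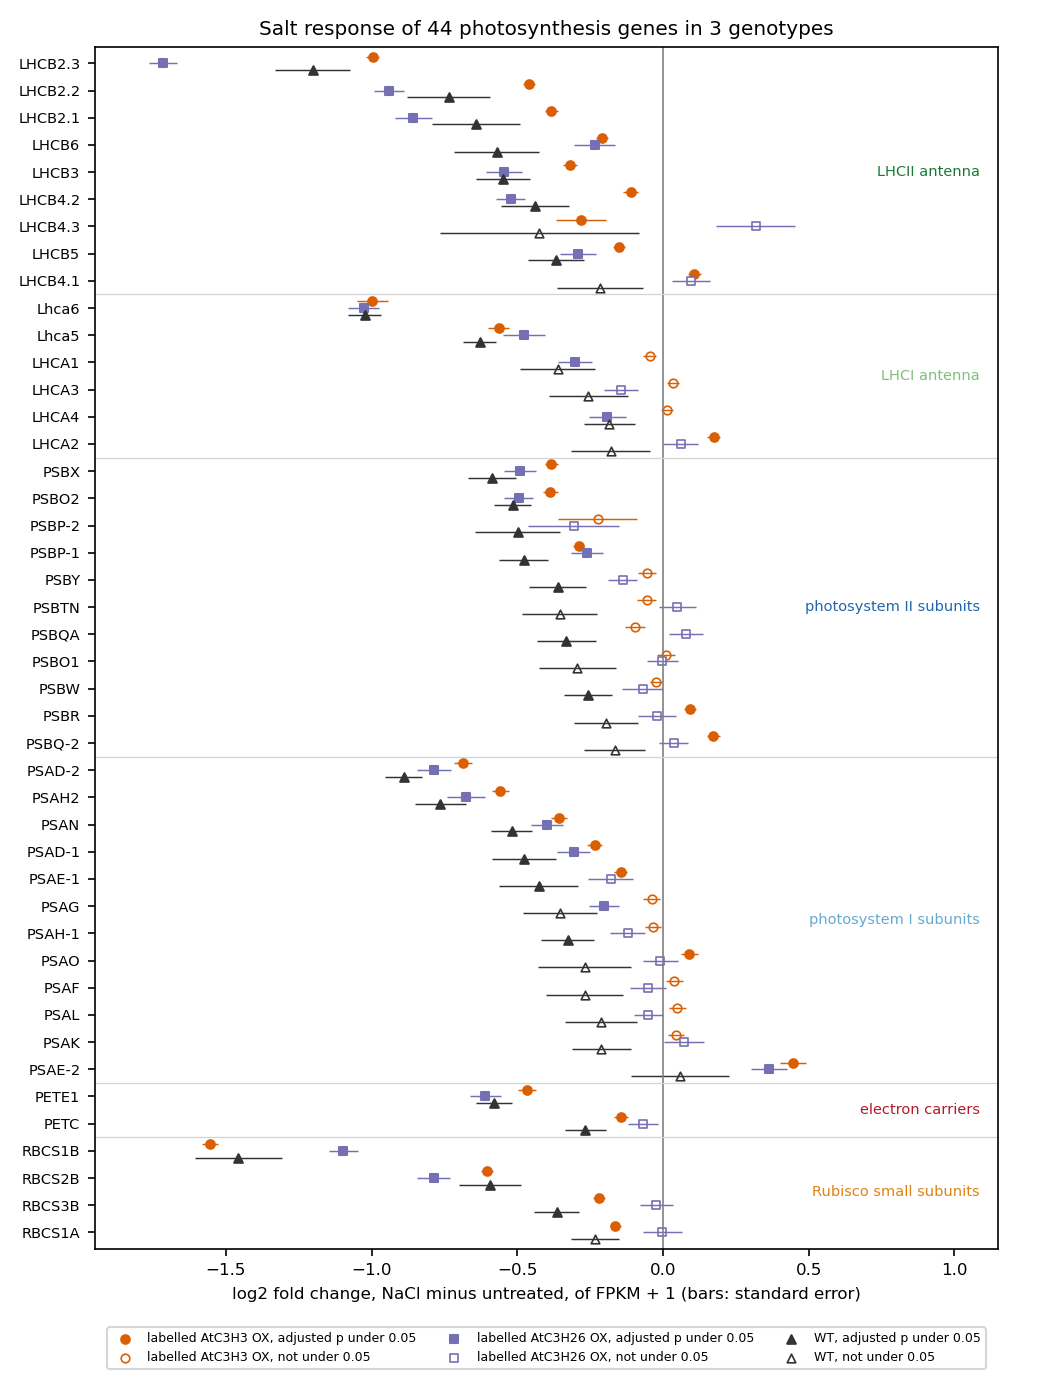
Points give the log2 fold change of FPKM + 1, NaCl minus untreated (horizontal axis), of each of the 44 members (rows, grouped by family) in the lines labelled AtC3H3 OX and AtC3H26 OX and in WT. Bars are standard errors, filled symbols passed an adjusted p of 0.05, and RBCS1B, LHCB2.3 and Lhca6 have the 3 lowest values in each genotype, while PSAE-2 lies at 0.45 and 0.36 in the lines labelled AtC3H3 OX and AtC3H26 OX.

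LHCII antenna proteins bind most of the chlorophyll of photosystem II, and LHCB1, LHCB2 and LHCB3 form its trimers. The 3 LHCB2 genes fell in every genotype, and LHCB2.3 (AT3G27690) fell most. It had 466 and 466 FPKM with NaCl against 928 and 933 FPKM untreated in AtC3H3 OX-labelled libraries, 323 and 334 against 1068 and 1094 in AtC3H26 OX-labelled ones, and 508 and 507 against 1367, 1254, 1023 and 1066 in WT, where the 4 untreated WT values, here and for every gene, are both replicates of set 2 and then both of set 1. No NaCl library overlapped an untreated library of the same genotype, and the log2 fold changes in the same order were -0.996 (SE 0.02, adjusted p = 1.37e-06), -1.72 (SE 0.05, adjusted p = 9.36e-06) and -1.20 (SE 0.13, adjusted p = 3.51e-04). LHCB2.1 (AT2G05100) had 1310.3 and 1339 FPKM with NaCl against 1742 and 1713 FPKM untreated in AtC3H3 OX-labelled libraries, 1059 and 1157 against 1990.0 and 2019.8 in AtC3H26 OX-labelled ones, and 1235 and 1272 against 2432, 2023, 1710.4 and 1735 in WT. Its log2 fold changes were -0.38 (SE 0.02, adjusted p = 5.11e-05), -0.86 (SE 0.06, adjusted p = 2.12e-04) and -0.64 (SE 0.15, adjusted p = 0.0117). LHCB2.2 (AT2G05070), its close copy, had 1254 and 1260.0 FPKM with NaCl against 1747 and 1712 FPKM untreated in AtC3H3 OX-labelled libraries, 999 and 1025 against 1972 and 1915 in AtC3H26 OX-labelled ones, and 1185 and 1202 against 2456, 2019.8, 1755 and 1798 in WT. The log2 fold changes of LHCB2.2 were -0.46 (SE 0.02, adjusted p = 2.12e-05), -0.94 (SE 0.05, adjusted p = 8.15e-05) and -0.74 (SE 0.14, adjusted p = 0.00514). LHCB2.1 was not called in WT without replicate 1 or without replicate 2 of the NaCl-treated WT (limma adjusted p = 0.0795 and 0.0665). In untreated WT, both replicates of set 2 were above both replicates of set 1 for each of the 3 genes.

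LHCB3 (AT5G54270), the third trimer protein, fell in all 3 genotypes. It had 2746 and 2832 FPKM with NaCl against 3465 and 3489 FPKM untreated in AtC3H3 OX-labelled libraries, 2398 and 2510.3 against 3642 and 3523 in AtC3H26 OX-labelled ones, and 2522 and 2541 against 4084, 3738, 3469 and 3567 in WT. The log2 fold changes were -0.32 (SE 0.02, adjusted p = 1.08e-04), -0.55 (SE 0.06, adjusted p = 0.001) and -0.55 (SE 0.09, adjusted p = 0.0028). With quantile normalization, the log2 fold change of LHCB3 in WT was -0.17, with an adjusted p of 0.0832 (limma). Quantile normalization replaces each value by the mean over the libraries at the same rank. The most abundant genes then move only in steps between ranks, so their values under it do not measure the size of a change.

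Between the trimers and the core of photosystem II lie the minor antenna proteins LHCB4, LHCB5 and LHCB6. LHCB5 (AT4G10340) had 2670.1 and 2676 FPKM with NaCl against 2953 and 2981 FPKM untreated in AtC3H3 OX-labelled libraries, 2382 and 2486 against 3064 and 2896 in AtC3H26 OX-labelled ones, and 2450.2 and 2505 against 3499, 3317, 2949 and 3055 in WT, with log2 fold changes of -0.15 (SE 0.02, adjusted p = 0.00115), -0.29 (SE 0.06, adjusted p = 0.0114) and -0.37 (SE 0.10, adjusted p = 0.017). LHCB6 (AT1G15820) had 1821 and 1822 FPKM with NaCl against 2129.8 and 2083 FPKM untreated in AtC3H3 OX-labelled libraries, 1664 and 1688 against 2081 and 1869 in AtC3H26 OX-labelled ones, and 1654 and 1703 against 3011, 2659, 2167 and 2232 in WT, with log2 fold changes of -0.21 (SE 0.02, adjusted p = 4.66e-04), -0.23 (SE 0.07, adjusted p = 0.0339) and -0.57 (SE 0.15, adjusted p = 0.0157). Both were called lower in all 3 genotypes, with values nearer to 0 in the lines than in WT, and the interaction tests of that difference called neither gene. The LHCB5 calls in WT and in the line labelled AtC3H26 OX ended with quantile normalization, at -0.013 (limma adjusted p = 0.936) and -0.100 (adjusted p = 0.432), and without the filter on low values (adjusted p = 0.0878 and 0.0597). The LHCB6 call in the line labelled AtC3H26 OX also ended with quantile normalization, at -0.12 (adjusted p = 0.357), and without the filter (adjusted p = 0.0976). Without replicate 1 or without replicate 2 of the NaCl-treated WT, the WT adjusted p was 0.119 and 0.0960 for LHCB5 and 0.0982 and 0.0818 for LHCB6. In the line labelled AtC3H26 OX, leaving out untreated replicate 1 gave an adjusted p of 0.0565 for LHCB5 and 0.129 for LHCB6, and leaving out NaCl replicate 1 or 2 gave 0.101 and 0.0822 for LHCB6. LHCB4 is encoded by 3 genes with unlike patterns. LHCB4.2 (AT3G08940) fell in all 3, with 1058 and 1098 FPKM with NaCl against 1159 and 1169.8 FPKM untreated in AtC3H3 OX-labelled libraries, 844 and 833 against 1228 and 1183 in AtC3H26 OX-labelled ones, and 967 and 984 against 1496, 1429, 1162 and 1232 in WT, and log2 fold changes of -0.11 (SE 0.03, adjusted p = 0.0128), -0.52 (SE 0.05, adjusted p = 5.40e-04) and -0.44 (SE 0.12, adjusted p = 0.0186). The LHCB4.2 call ended in WT without replicate 1 or 2 of the NaCl-treated WT (adjusted p = 0.111 and 0.0968), and in the line labelled AtC3H3 OX without untreated replicate 1 or 2 (adjusted p = 0.0562 and 0.0760). LHCB4.1 (AT5G01530) had 1449 and 1460.4 FPKM with NaCl against 1359 and 1342 FPKM untreated in AtC3H3 OX-labelled libraries, 1417 and 1431 against 1401 and 1266 in AtC3H26 OX-labelled ones, and 1389 and 1410.0 against 1922, 1807, 1391 and 1443 in WT. Its log2 fold changes were 0.11 (SE 0.02, adjusted p = 0.00649), 0.10 (SE 0.07, adjusted p = 0.263) and -0.22 (SE 0.15, adjusted p = 0.263), so that it was called higher in the line labelled AtC3H3 OX and not elsewhere, and this call ended with quantile normalization, at 0.036 (adjusted p = 0.373), with TPM scaling, at 0.012 (adjusted p = 0.733), with all 14 libraries in 1 fit (adjusted p = 0.0888) and without untreated replicate 2 (adjusted p = 0.0639). LHCB4.3 (AT2G40100) had 6.37 and 5.79 FPKM with NaCl against 7.501 and 7.69 FPKM untreated in AtC3H3 OX-labelled libraries, 7.62 and 9.59 against 6.13 and 7.24 in AtC3H26 OX-labelled ones, and 4.33 and 4.904 against 4.66, 4.06, 9.61 and 9.61 in WT, a level at which fold changes on the scale of FPKM + 1 are smaller than ratios of FPKM. Its log2 fold changes were -0.28 (SE 0.09, adjusted p = 0.0325), 0.32 (SE 0.13, adjusted p = 0.095) and -0.43 (SE 0.34, adjusted p = 0.332), lower by the test in the line labelled AtC3H3 OX alone. The adjusted p of LHCB4.3 there was 0.109 without NaCl replicate 2, 0.105 and 0.137 without untreated replicate 1 or 2, 0.0577 without the filter, and 0.0502 with all 14 libraries in 1 fit. The untreated WT sets did not overlap for LHCB4.3, and the 2 NaCl-treated WT libraries lay close to set 2 and below set 1.

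The LHCI antenna consists mainly of the proteins of LHCA1 to LHCA4, whereas Lhca5 and Lhca6 are minor proteins that link photosystem I to the NDH complex of cyclic electron transport. Only these 2 of the 6 LHCI genes fell in each genotype. Lhca6 (AT1G19150) had 53.5 and 49.8 FPKM with NaCl against 101 and 107 FPKM untreated in AtC3H3 OX-labelled libraries, 47.8 and 46.1 against 99.6 and 93.97 in AtC3H26 OX-labelled ones, and 52.5 and 48.8 against 102, 104, 103 and 106 in WT, with every NaCl library far below every untreated one. The log2 fold changes were -0.997 (SE 0.05, adjusted p = 2.80e-05), -1.03 (SE 0.05, adjusted p = 6.23e-05) and -1.02 (SE 0.06, adjusted p = 2.33e-05). Lhca5 (AT1G45474) had 69.1 and 71.6 FPKM with NaCl against 104 and 105 FPKM untreated in AtC3H3 OX-labelled libraries, 71.4 and 66.6 against 102 and 90.9 in AtC3H26 OX-labelled ones, and 63.04 and 65.6 against 100.4, 96.8, 100.3 and 103 in WT, with log2 fold changes of -0.56 (SE 0.04, adjusted p = 5.93e-05), -0.48 (SE 0.07, adjusted p = 0.00306) and -0.63 (SE 0.06, adjusted p = 1.61e-04). Neither gene overlapped between NaCl and untreated libraries, and the untreated WT sets overlapped for both.

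The other 4 LHCI genes did not fall in each genotype. LHCA1 (AT3G54890) had 3146 and 3166 FPKM with NaCl against 3211 and 3305 FPKM untreated in AtC3H3 OX-labelled libraries, 2699 and 2667 against 3357 and 3264 in AtC3H26 OX-labelled ones, and 2821 and 2889 against 4156, 4031, 3206 and 3367 in WT, with log2 fold changes of -0.05 (SE 0.02, adjusted p = 0.134), -0.30 (SE 0.06, adjusted p = 0.0072) and -0.36 (SE 0.13, adjusted p = 0.0536). LHCA4 (AT3G47470) had 3691 and 3752 FPKM with NaCl against 3669 and 3697 FPKM untreated in AtC3H3 OX-labelled libraries, 3013 and 3143 against 3595 and 3434 in AtC3H26 OX-labelled ones, and 3356 and 3360.3 against 4064, 3945, 3571 and 3696 in WT, with log2 fold changes of 0.02 (SE 0.02, adjusted p = 0.55), -0.19 (SE 0.06, adjusted p = 0.048) and -0.18 (SE 0.09, adjusted p = 0.123). Both were called lower in the line labelled AtC3H26 OX alone, and the interaction test of that line against WT called neither. The calls ended with quantile normalization, at -0.098 for LHCA1 (limma adjusted p = 0.430) and -0.097 for LHCA4 (adjusted p = 0.536), and without the filter on low values (adjusted p = 0.0511 and 0.182). The LHCA4 call also ended with the replicate block (adjusted p = 0.0581) and without any 1 of the 4 libraries of that line (adjusted p from 0.0749 to 0.173). LHCA2 (AT3G61470) had 1559 and 1539 FPKM with NaCl against 1374 and 1373 FPKM untreated in AtC3H3 OX-labelled libraries, 1454 and 1478 against 1457 and 1356 in AtC3H26 OX-labelled ones, and 1425 and 1429 against 1896, 1756, 1408 and 1456 in WT, with log2 fold changes of 0.17 (SE 0.02, adjusted p = 8.46e-04), 0.06 (SE 0.06, adjusted p = 0.42) and -0.18 (SE 0.14, adjusted p = 0.303). It rose in the line labelled AtC3H3 OX, by 1.13-fold. LHCA3 (AT1G61520) had 2177 and 2173 FPKM with NaCl against 2101 and 2145 FPKM untreated in AtC3H3 OX-labelled libraries, 1889 and 1996 against 2169 and 2128 in AtC3H26 OX-labelled ones, and 2005 and 1979 against 2676, 2700.1, 2058 and 2162 in WT, with log2 fold changes of 0.03 (SE 0.02, adjusted p = 0.21), -0.15 (SE 0.06, adjusted p = 0.082) and -0.26 (SE 0.14, adjusted p = 0.155), and was not called in any genotype.

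**Figure D3:**
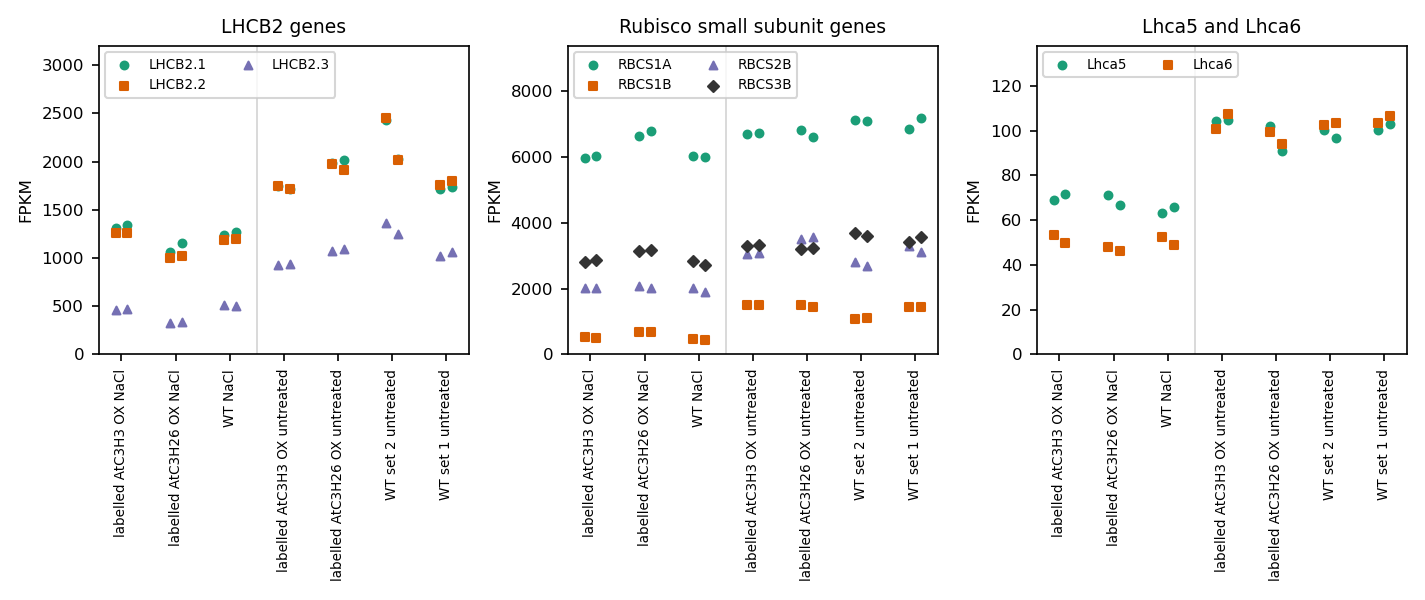
Each point is the FPKM (vertical axis, from 0) of a gene in 1 library, with the 2 replicates of a group side by side and the NaCl libraries left of the grey line, for the LHCB2 genes, the Rubisco small subunit genes, and Lhca5 with Lhca6. LHCB2.3, RBCS1B and Lhca6 are lower in all 6 NaCl libraries than in all 8 untreated libraries, while RBCS1A stays within 5972 to 7175 FPKM.

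The Rubisco small subunit is encoded by 4 genes, of which RBCS1B, RBCS2B and RBCS3B neighbour each other on chromosome 5 and RBCS1A lies on chromosome 1. RBCS1B (AT5G38430) showed the largest fall of all members in the line labelled AtC3H3 OX and in WT. It had 519.9 and 499 FPKM with NaCl against 1494 and 1500.4 FPKM untreated in AtC3H3 OX-labelled libraries, 684 and 684 against 1496 and 1435 in AtC3H26 OX-labelled ones, and 474 and 434 against 1070.1, 1104, 1430.0 and 1435 in WT. The log2 fold changes were -1.55 (SE 0.03, adjusted p = 7.59e-07), -1.10 (SE 0.05, adjusted p = 4.19e-05) and -1.46 (SE 0.15, adjusted p = 2.90e-04). RBCS2B (AT5G38420) had 2031 and 2017 FPKM with NaCl against 3063 and 3089 FPKM untreated in AtC3H3 OX-labelled libraries, 2072 and 2021 against 3501 and 3561 in AtC3H26 OX-labelled ones, and 2033 and 1909 against 2815, 2696, 3306 and 3123 in WT, with log2 fold changes of -0.60 (SE 0.02, adjusted p = 5.25e-06), -0.79 (SE 0.06, adjusted p = 1.94e-04) and -0.59 (SE 0.11, adjusted p = 0.00355). Both genes fell in all 3 genotypes, with no overlap between NaCl and untreated libraries.

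RBCS3B (AT5G38410) had 2811 and 2867 FPKM with NaCl against 3301 and 3315 FPKM untreated in AtC3H3 OX-labelled libraries, 3151 and 3174 against 3204 and 3221 in AtC3H26 OX-labelled ones, and 2829 and 2719 against 3705, 3594, 3417 and 3579.8 in WT, with log2 fold changes of -0.22 (SE 0.02, adjusted p = 3.10e-04), -0.02 (SE 0.06, adjusted p = 0.759) and -0.37 (SE 0.08, adjusted p = 0.00763). It was called lower in the line labelled AtC3H3 OX and in WT. The WT call of RBCS3B ended with quantile normalization, at -0.0027 (limma adjusted p = 0.975), without the filter on low values (adjusted p = 0.0783), and without replicate 1 or 2 of the NaCl-treated WT (adjusted p = 0.0566 and 0.0866). RBCS1A (AT1G67090), the most abundant copy, had 5972 and 6025 FPKM with NaCl against 6706 and 6731 FPKM untreated in AtC3H3 OX-labelled libraries, 6631 and 6780.2 against 6809.5 and 6621 in AtC3H26 OX-labelled ones, and 6035 and 5992 against 7139, 7109, 6852 and 7175 in WT. Its log2 fold changes were -0.16 (SE 0.02, adjusted p = 6.56e-04), -0.00 (SE 0.07, adjusted p = 0.983) and -0.23 (SE 0.08, adjusted p = 0.0526), a call in the line labelled AtC3H3 OX alone. With quantile normalization the value of RBCS1A in the line labelled AtC3H26 OX turned to 0.50, with an adjusted p of 0.0145, and that in the line labelled AtC3H3 OX was no longer called. In FPKM, the NaCl and untreated libraries of the line labelled AtC3H26 OX overlapped for RBCS1A. The highest genes move only in steps between ranks under this normalization, so neither value measures the change of RBCS1A.

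PETE1 (AT1G76100), 1 of the plastocyanin genes, had 141 and 140.5 FPKM with NaCl against 192 and 197 FPKM untreated in AtC3H3 OX-labelled libraries, 118 and 111 against 179 and 171 in AtC3H26 OX-labelled ones, and 128 and 135 against 194, 189.5, 198 and 207 in WT. Its log2 fold changes were -0.47 (SE 0.03, adjusted p = 6.10e-05), -0.61 (SE 0.05, adjusted p = 3.86e-04) and -0.58 (SE 0.06, adjusted p = 3.53e-04). The other plastocyanin gene is listed as DRT112, does not match the name rule, and was the more abundant, with 1276 and 1324 FPKM with NaCl against 1486 and 1473 FPKM untreated in AtC3H3 OX-labelled libraries, 1309 and 1235 against 1302 and 1264 in AtC3H26 OX-labelled ones, and 1236 and 1228 against 1748, 1504, 1443 and 1491 in WT. For DRT112 they were -0.19 (SE 0.03, adjusted p = 0.00152), -0.01 (SE 0.06, adjusted p = 0.869) and -0.32 (SE 0.09, adjusted p = 0.0265). PETC (AT4G03280), the Rieske protein, had 667 and 669 FPKM with NaCl against 745 and 733 FPKM untreated in AtC3H3 OX-labelled libraries, 692 and 707 against 755 and 712 in AtC3H26 OX-labelled ones, and 649.7 and 626 against 824, 751, 746 and 751 in WT, with log2 fold changes of -0.14 (SE 0.02, adjusted p = 0.0026), -0.07 (SE 0.05, adjusted p = 0.312) and -0.27 (SE 0.07, adjusted p = 0.0179). In WT the PETC adjusted p was 0.0908 without replicate 1 and 0.147 without replicate 2 of the NaCl-treated WT (limma).

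Among the 12 subunits of photosystem I, 5 fell and 2 rose in the line labelled AtC3H3 OX, 5 fell and 1 rose in the line labelled AtC3H26 OX, and 6 fell and none rose in WT. PSAD-1, PSAD-2, PSAH2 and PSAN fell in each, and the WT call of PSAD-1 ended without replicate 1 or 2 of the NaCl-treated WT (adjusted p = 0.0658 and 0.0818). Of all genes tested, 29.9% fell in the AtC3H3 OX-labelled line, 26.4% in the AtC3H26 OX-labelled line and 25.5% in WT. In the same order, 31.4%, 29.2% and 25.6% of all genes rose. Among genes with a mean of at least 100 FPKM, the shares that fell were 48.3%, 30.9% and 38.9%. PSAD and PSAE form the stromal side on which ferredoxin docks, and PSAH lies where LHCII binds photosystem I. PSAD-2 (AT1G03130) had the largest fall of the family in every genotype, with 673 and 711 FPKM with NaCl against 1110.3 and 1118 FPKM untreated in AtC3H3 OX-labelled libraries, 655 and 602 against 1087 and 1079 in AtC3H26 OX-labelled ones, and 626 and 629 against 1184, 1143, 1126 and 1206 in WT, and log2 fold changes of -0.69 (SE 0.03, adjusted p = 1.75e-05), -0.79 (SE 0.06, adjusted p = 2.16e-04) and -0.89 (SE 0.06, adjusted p = 6.85e-05). PSAE-2 (AT2G20260) was the largest rise among the members in both lines. It had 868 and 929 FPKM with NaCl against 639.6 and 678 FPKM untreated in AtC3H3 OX-labelled libraries, 838 and 777 against 649 and 606 in AtC3H26 OX-labelled ones, and 829.9 and 817 against 943, 906, 634 and 719.9 in WT, with log2 fold changes of 0.45 (SE 0.04, adjusted p = 3.43e-04), 0.36 (SE 0.06, adjusted p = 0.00502) and 0.06 (SE 0.17, adjusted p = 0.791). In WT the 2 untreated sets lay on either side of the NaCl libraries, and against set 1 alone the log2 fold change was 0.28, with an adjusted p of 0.00767 (limma). PSAE-2 was the only member with a positive value in all 3 genotypes. PSAO, which lies beside PSAL near the LHCII docking site, had 2392 and 2510.5 FPKM with NaCl against 2292 and 2312 FPKM untreated in AtC3H3 OX-labelled libraries, 2133 and 2053 against 2163 and 2052 in AtC3H26 OX-labelled ones, and 2177 and 2177 against 3155, 2928, 2216 and 2315 in WT, and rose in the line labelled AtC3H3 OX, with a log2 fold change of 0.09 (SE 0.03, adjusted p = 0.0357). This PSAO call ended in 7 alternatives, among them quantile normalization, at 0.0066 (adjusted p = 0.920), and TPM scaling, where the value turned to -0.0052 (adjusted p = 0.892).

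Among the 11 subunits of photosystem II, 3 fell and 2 rose in the line labelled AtC3H3 OX, 3 fell and none rose in the line labelled AtC3H26 OX, and 7 fell and none rose in WT. PSBX, PSBO2 and PSBP-1 fell in each genotype. The share of these subunits that fell was near that of all genes in the lines (29.9% and 26.4%) and above it in WT (25.5%). Among genes with a mean of at least 100 FPKM, 48.3% and 30.9% fell in the lines and 38.9% in WT. PSBX is a small membrane subunit, and PSBO, PSBP and PSBQ are the extrinsic proteins that shield the oxygen-evolving cluster in the thylakoid lumen. PSBX (AT2G06520) had 1811 and 1795 FPKM with NaCl against 2319 and 2384 FPKM untreated in AtC3H3 OX-labelled libraries, 1645 and 1634 against 2343 and 2265 in AtC3H26 OX-labelled ones, and 1634 and 1615 against 2644, 2349, 2336 and 2447 in WT, with log2 fold changes of -0.38 (SE 0.02, adjusted p = 5.09e-05), -0.49 (SE 0.05, adjusted p = 9.39e-04) and -0.59 (SE 0.08, adjusted p = 0.00119). PSBQ-2 (AT4G05180) had the larger change of the 2 subunits that rose in the line labelled AtC3H3 OX, with 969 and 976 FPKM with NaCl against 856 and 869.7 FPKM untreated in AtC3H3 OX-labelled libraries, 922 and 900.3 against 900.0 and 877 in AtC3H26 OX-labelled ones, and 901 and 903 against 1109, 1103, 911 and 941 in WT, and a log2 fold change of 0.17 (SE 0.02, adjusted p = 0.00115) there. PSBP-2, with 1.16 to 3.42 FPKM, was called lower in WT alone, and not against set 2 alone (adjusted p = 0.0802), without either replicate of the NaCl-treated WT (adjusted p = 0.196 and 0.0542) or without either replicate of set 1 (adjusted p = 0.0546 and 0.0524). With quantile normalization the value of PSBP-1 in the line labelled AtC3H26 OX was -0.17, with an adjusted p of 0.121.

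The rows matched by name alone did not follow the photosynthesis genes. PSAT rose in each genotype, with 43.9 and 46.3 FPKM with NaCl against 24.7 and 25.4 FPKM untreated in AtC3H3 OX-labelled libraries, 56.5 and 57.5 against 29.9 and 25.1 in AtC3H26 OX-labelled ones, and 52.7 and 50.2 against 24.3, 25.95, 27.1 and 25.6 in WT, and log2 fold changes of 0.82 (SE 0.05, adjusted p = 4.78e-05), 1.03 (SE 0.09, adjusted p = 3.52e-04) and 0.97 (SE 0.07, adjusted p = 5.61e-05). PSAT1 was at 2.73 to 4.17 FPKM and was not called in any genotype.

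Where 1 subunit is encoded by several genes, the copies moved unequally. For each of 10 such subunits, chosen after the values were seen, the share of each copy in the summed FPKM of the subunit was computed within each library, which removes the scaling between libraries. These shares are descriptions and were not tested. RBCS1B took 3.93% to 5.46% of the Rubisco small subunit FPKM with NaCl (median 4.48%), against 7.26% to 10.3% untreated (median 9.60%). RBCS1A took 52.7% to 54.2% with NaCl, against 44.6% to 49.0% untreated. LHCB2.3 took 13.3% to 17.3% of the LHCB2 sum with NaCl, against 21.0% to 23.7% untreated. In photosystem I the second copies of PSAE and PSAD shifted in opposite directions. PSAE-2 took 52.7% to 55.3% of the PSAE sum with NaCl, against 43.3% to 49.1% untreated, whereas PSAD-2 took 33.9% to 36.3% of the PSAD sum with NaCl, against 38.8% to 43.7% untreated. PSAH2 took 70.5% to 71.1% of the PSAH sum with NaCl, against 76.3% to 77.9% untreated. LHCB4.2, PSBO2, RBCS2B and PETE1 also had lower shares in all NaCl libraries than in all untreated ones, and the shares of the PSBP and PSBQ copies overlapped. For PETE1 the highest share with NaCl was 9.94% and the lowest untreated share 9.99%, and for PSBO2 these were 21.9% and 22.2%. Both of these lowest untreated shares were in replicate 1 of WT set 2. Copies with similar sequence share reads, and how TopHat and Cufflinks divided these between copies cannot be checked in FPKM, so the levels of single copies are uncertain to that extent.

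**Figure D4:**
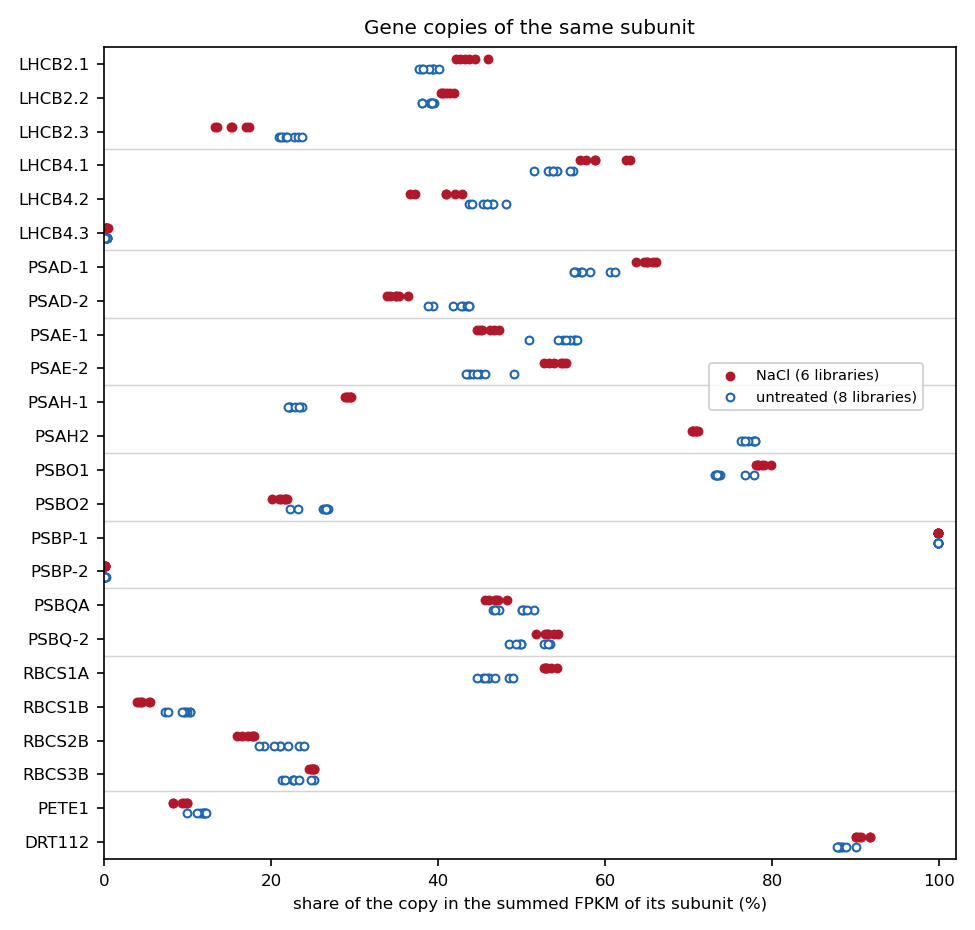
Points give the share of each gene copy in the summed FPKM of its subunit (horizontal axis, %) in the 6 NaCl libraries (filled, upper) and the 8 untreated libraries (open, lower), with subunits separated by grey lines. RBCS1B, LHCB2.3 and PSAD-2 have lower shares and RBCS1A, PSAE-2 and PSAH-1 higher shares in all NaCl libraries than in all untreated ones.

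Other genes of photosynthesis were described from lists that are no part of the name rule. The 5 antenna genes with other names, the LHCB1 genes CAB1, CAB2, CAB3, LHB1B1 and LHB1B2, held none called lower in any genotype. Of these, 3 rose in the line labelled AtC3H3 OX, 1 rose in the line labelled AtC3H26 OX and none was called in WT, with medians of 0.34, 0.14 and -0.05. In WT this rests on the untreated set. The LHCB1 sum was 27158 and 27228 FPKM with NaCl, against 33935 and 29815 FPKM in set 2 and 24273 and 25216 FPKM in set 1. Against set 2 alone, LHB1B1 was called lower at -0.50 (limma adjusted p = 0.00538) and CAB3 at -0.38 (adjusted p = 0.0125), and against set 1 alone CAB1 was called higher at 0.26 (adjusted p = 0.000701), LHB1B2 at 0.12 (adjusted p = 0.0416) and LHB1B1 at 0.12 (adjusted p = 0.0338). Of 16 Calvin cycle genes, 13, 11 and 12 fell and 2, 2 and 1 rose in the same order, and CP12-2, FBA1 and PRK led the falls in WT at -1.46, -0.90 and -0.85 on the log2 scale, while CP12-3 rose by 0.85. Of 14 genes of electron transport and ATP synthase, 10, 9 and 10 fell, among them the NDH subunit genes NdhM and NdhN and the ATP synthase gene ATPD, at -1.35, -0.98 and -0.99 in WT, and 1 rose in each genotype. The ferredoxin gene FD3, known for roots, rose by 0.96 in WT. Of 23 genes of chlorophyll synthesis, 17, 9 and 14 fell and 2, 3 and 1 rose, with PCB2, CH1 and CHLI2 at -0.79, -0.77 and -0.76 in WT and HEMA2 higher by 1.36. Of 9 genes of chlorophyll breakdown, 7, 7 and 6 rose and 1 fell in each genotype. PPH, NYE1 and ACD1 led these in WT with 1.32, 1.25 and 1.22, and ACD2 was at -0.59.

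Genes of repair, state transition and photoprotection were divided. Of 21, 9, 8 and 8 fell and 5, 6 and 3 rose in the same order. The antenna relative OHP, the thylakoid protein gene LQY1 and NPQ4, which encodes the PsbS protein of energy quenching, were lowest in WT at -0.70, -0.66 and -0.59, and the protease genes FTSH8 and VAR2 and the zeaxanthin epoxidase gene ABA1 were higher at 0.94, 0.35 and 0.30. Of 17 regulators tested, 8, 10 and 5 fell and 3, 2 and 2 rose. PIL5, SIGA and SIG2 were lowest in WT, at -1.004, -0.62 and -0.59. Each of these list counts stands beside the shares of all genes given above for the same comparison, and none was tested as a set.

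Several other gene groups, among them clock and stress genes and markers of cell types, held genes called with NaCl in the same libraries. Their part in the members' change was not tested, and no group was tested as a set. Of all genes tested, 31.4%, 29.2% and 25.6% rose and 29.9%, 26.4% and 25.5% fell, in the order AtC3H3 OX label, AtC3H26 OX label, WT. Of 16 clock genes, 10, 8 and 10 rose and 4, 5 and 3 fell in the same order. ELF4, PRR5 and PCL1, which are evening or afternoon genes, were higher in WT by 2.36, 2.27 and 2.23, and the morning gene LHY was at -1.24. In the line labelled AtC3H3 OX, ELF4 was higher by 2.51 and LHY was at -1.81, and in the line labelled AtC3H26 OX ELF4 was higher by 2.79 and LHY was at -2.32. Time of day at harvest is not given in the labels. All 12 salt and osmotic stress markers rose in each genotype, led in WT by KIN1, RD20 and LTI78 at 5.76, 5.25 and 4.62. Of 11 sugar and dark-responsive genes, 7, 8 and 7 rose and 2, 1 and 1 fell, with ASN1 and DIN11 higher in WT by 2.92 and 2.71. Of 9 genes on the mesophyll list outside the members, TGG2 among them, none rose and 7, 8 and 6 fell, and their summed level was 5640 to 6040 FPKM in the NaCl libraries against 7344 to 8417 FPKM untreated. Which cells hold these transcripts was not measured here. Root markers were divided, 6, 7 and 1 of 19 higher and 9, 7 and 9 lower, with sums of 1736 to 2028 FPKM with NaCl against 1586 to 2156 FPKM untreated, so that their summed levels overlapped. Of 4 guard cell markers 1 rose in each genotype and 3, 3 and 2 fell, with medians of -0.45, -0.75 and -0.64. Their sums were 123 to 170.4 FPKM with NaCl against 56.1 to 69.9 FPKM untreated. In both lines this higher sum came from the 1 gene that rose. Of 5 epidermis and cuticle genes 2, 2 and 3 rose and 2 fell in each genotype.

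The study asked how the overexpressing line differs from WT under salt stress, and the members were compared for this between libraries with NaCl. In AtC3H3 OX-labelled libraries, 5 of the 44 members were higher than in WT with NaCl and none was lower, while 2.67% of all genes tested were called in either direction. The median of the members was 0.11, 42 of the 44 values were positive, and in 37 members both replicates labelled AtC3H3 OX lay above both WT replicates, as did 25.3% of all genes tested. The 5 were LHCA1, LHCA4, PSAO, PSBR and PSBX, with differences close to the median. PSAO had 2392 and 2510.5 FPKM under the AtC3H3 OX label and 2177 and 2177 FPKM in WT, with 0.17 (SE 0.03, adjusted p = 0.0469). PSBX had 1811 and 1795 against 1634 and 1615 FPKM, with 0.15 (SE 0.02, adjusted p = 0.0356). LHCA4 had 3691 and 3752 against 3356 and 3360.3 FPKM, with 0.15 (SE 0.02, adjusted p = 0.0348). Higher calls were not limited to the members. They included 2 of 5 LHCB1 genes (LHB1B1 at 0.24, LHB1B2 at 0.21), 3 of 16 Calvin cycle genes and 2 of 14 electron transport and ATP synthase genes. None of these 3 lists held a lower call, while 2 of 11 sugar and dark-responsive genes were lower. Genes on the mesophyll list summed to 5976 and 5992 FPKM under the AtC3H3 OX label and 5675 and 5640 FPKM in WT. With quantile normalization, which the study's methods name, none of the 44 was called and the median was 0.03, and none was called with TPM scaling or without the filter on low values. The count was 0 without replicate 1 or 2 of WT or without replicate 2 labelled AtC3H3 OX, and 2 without replicate 1 labelled AtC3H3 OX.

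In AtC3H26 OX-labelled libraries with NaCl, 2 members were higher and 3 lower than in WT, while 7.09% of all genes tested were called. The median of the members was 0.01. RBCS1B had 684 and 684 FPKM under the AtC3H26 OX label and 474 and 434 FPKM in WT, with 0.59 (SE 0.05, adjusted p = 0.00571). LHCB4.3 had 7.62 and 9.59 against 4.33 and 4.904 FPKM, with 0.77 (SE 0.13, adjusted p = 0.0285). The lower members were LHCII antenna genes. LHCB2.3 had 323 and 334 against 508 and 507 FPKM, with -0.63 (SE 0.04, adjusted p = 0.00328). LHCB2.2 had 999 and 1025 against 1185 and 1202 FPKM, with -0.24 (SE 0.04, adjusted p = 0.0241), and LHCB4.2 had 844 and 833 against 967 and 984 FPKM, with -0.22 (SE 0.04, adjusted p = 0.028). None of the 5 was called without replicate 1 or without replicate 2 of WT, when 7 or 11 of all genes were called at all. Of all calls in this comparison 35.9% were higher, and this share was 45.3% with quantile normalization and 47.8% with TPM scaling. Marker sums differed between the same libraries. Guard cell markers summed to 123 and 131 FPKM under the AtC3H26 OX label and 167 and 170.4 FPKM in WT. Of these 4 markers only CYP86A2 was called, as lower. Root markers summed to 2028 and 2016 FPKM against 1832 and 1833 FPKM, with none of the 16 tested called. Salt and osmotic stress markers summed to 9023 and 7621 FPKM under the AtC3H26 OX label and 12363 and 11922 FPKM in WT, with 8 of 12 called lower. The part of these markers in the members' values was not tested.

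Without NaCl, no member was called in either line against the 4 untreated WT libraries (limma). At an unadjusted p under 0.05, 2 members were lower and none higher in AtC3H3 OX-labelled libraries, where 6.83% of all genes tested were lower and 3.3% higher. By the same measure 6 members were lower and none higher in AtC3H26 OX-labelled libraries, where 9.49% of all genes were lower and 6.17% higher. At the adjusted p, 0.0449% of all genes tested were called in the line labelled AtC3H3 OX and 1.65% in the line labelled AtC3H26 OX. The medians of the members were -0.16 and -0.15, with 39 and 40 of 44 values negative. Which set of WT served as reference decided the count. Against WT set 2 alone, 17 members were lower and 2 higher in AtC3H3 OX-labelled libraries, where 5.87% of all genes were lower and 8.46% higher, and 8 were lower and 1 higher in AtC3H26 OX-labelled ones, where 4.5% of all genes were lower and 5.07% higher. Against set 1 alone, none was called in AtC3H3 OX-labelled libraries, where 1.6% of all genes were lower and 0.864% higher, and 3 were lower and 1 higher in AtC3H26 OX-labelled ones, where 8.62% of all genes were lower and 3.6% higher.

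The 2 untreated WT sets were therefore set against each other, as groups with the same labels for genotype and treatment. Of the 44 members, 3 were higher and 2 lower in set 2 than in set 1, while 2.81% of all genes tested were higher and 7.32% lower. The median of the members was 0.19, 36 of the 44 values were positive, and in 32 members both libraries of set 2 lay above both of set 1, as did 22.4% of all genes tested. The higher members were PSAE-2, PSAO and LHCB4.1. PSAE-2 had 943 and 906 FPKM in set 2 and 634 and 719.9 FPKM in set 1, with a log2 fold change of 0.45 (SE 0.09, adjusted p = 0.0252). PSAO had 3155 and 2928 against 2216 and 2315 FPKM, with 0.42 (SE 0.09, adjusted p = 0.0357), and LHCB4.1 had 1922 and 1807 against 1391 and 1443 FPKM, with 0.40 (SE 0.08, adjusted p = 0.0318). The lower members were LHCB4.3, with 4.66 and 4.06 FPKM in set 2 and 9.61 and 9.61 FPKM in set 1 at -0.99 (SE 0.10, adjusted p = 0.00308), and RBCS1B, with 1070.1 and 1104 against 1430.0 and 1435 FPKM at -0.40 (SE 0.07, adjusted p = 0.0225). The count of higher members was 14 without replicate 1 of set 2, 23 without replicate 2 of set 2, and 0 without either replicate of set 1. The same sets differed in several of the lists. Of sugar and dark-responsive genes, 7 of the 9 tested were lower in set 2 (sums of 157 to 164 FPKM in set 2 against 499.6 to 509 FPKM in set 1). Of 16 Calvin cycle genes, 4 were lower and none higher. Of 17 regulators tested, 2 were higher (GPRI1 and GLK2) and 2 lower. Of 11 salt and osmotic stress markers tested, 4 were higher and none lower. Of 5 LHCB1 genes, 1 was higher and none lower. The part of these differences in the members' values was not tested.

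**Figure D5:**
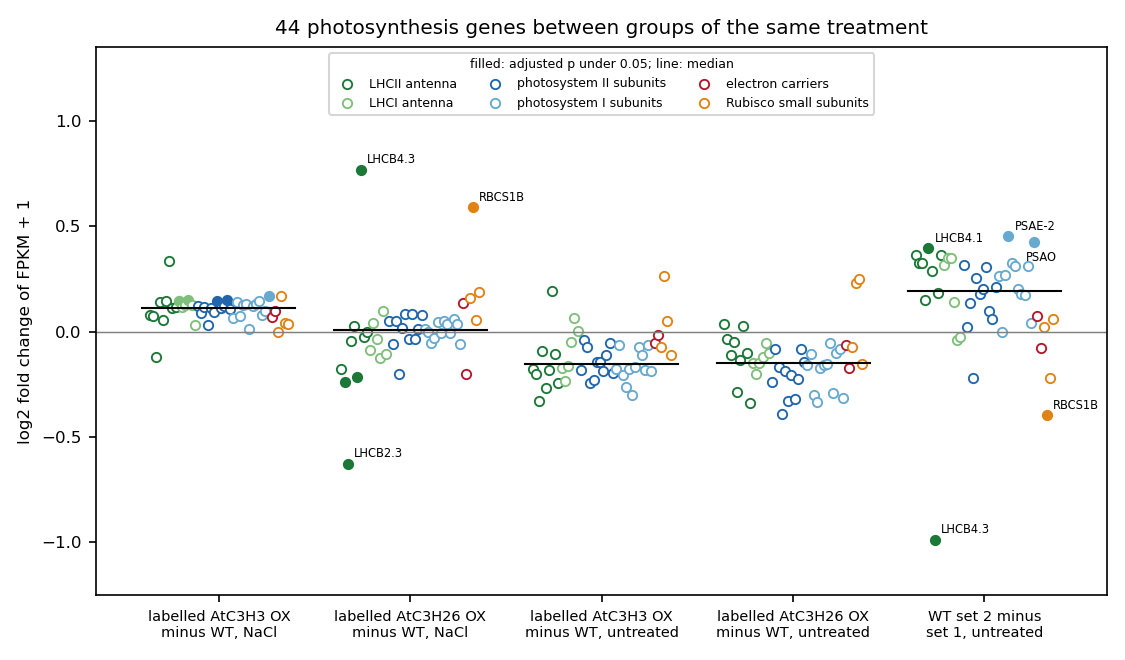
Each circle is the log2 fold change of FPKM + 1 (vertical axis) of 1 of the 44 members in a comparison between groups of the same treatment, coloured by family, filled where the adjusted p was under 0.05, with a line at the median. The medians lie at 0.11 and 0.01 for the lines against WT with NaCl, at -0.16 and -0.15 untreated, and at 0.19 for WT set 2 against set 1. Labels name the called members beyond 0.3.

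Whether the salt response itself differed between a line and WT was tested as an interaction. No member was called for the line labelled AtC3H3 OX or for the line labelled AtC3H26 OX (limma, 10 libraries each), while 0.0769% and 1.42% of all genes tested were called. At an unadjusted p under 0.05, 5 members were higher and none lower for the line labelled AtC3H3 OX, where 6.22% of all genes tested were higher and 3.6% lower. By the same measure 4 members were higher and 1 lower for the line labelled AtC3H26 OX, where 7.94% of all genes were higher and 6.93% lower. The medians were 0.25 and 0.18, with 42 and 36 of 44 values positive, that is, a log2 fold change with NaCl that was higher in the line than in WT. For RBCS1B the interaction was -0.10 (SE 0.19, adjusted p = 0.901) for the line labelled AtC3H3 OX and 0.36 (SE 0.20, adjusted p = 0.445) for the line labelled AtC3H26 OX, and for LHCB2.3 it was 0.21 (SE 0.16, adjusted p = 0.722) and -0.51 (SE 0.17, adjusted p = 0.193). These counts also rest on the WT reference. With set 2 alone as untreated WT, 26 members were higher and 1 lower for the line labelled AtC3H3 OX, where 4.64% of all genes were higher and 6.51% lower, and 13 were higher and 1 lower for the line labelled AtC3H26 OX, where 3.14% were higher and 5.01% lower. With set 1 alone, 6 were higher and none lower for the line labelled AtC3H3 OX, where 1.93% of all genes were higher and 0.841% lower, and 4 were higher and 4 lower for the line labelled AtC3H26 OX, where 6.48% were higher and 3.86% lower.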

How the data were processed

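mRNA-Seq was done on 14 libraries, 2 for each of 7 groups. Per the labels and the methods, the authors trimmed paired-end reads, aligned them to TAIR10 with TopHat and made the deposited FPKM values with Cufflinks. The methods name quantile normalization, but upper quartiles of the deposited values differed between libraries (18.2 to 20.2 FPKM). Read totals are not used here, so depth is given only relative to other libraries. Rows without a gene name (218, all at 0) were left out.

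log2(FPKM + 1) was tested with limma 3.58.1 (R 4.3.3) in the libraries of each comparison, for genes with at least 1 FPKM in 2 or more of them. Benjamini-Hochberg adjustment ran over all genes tested, with calls at 0.05. Fold changes on this scale understate changes of low genes. The labels call the replicates biological. The fits were tested on simulated data. Pseudocount, filter, scaling, replicate block, a single fit, either WT set alone and leaving out each library were tried as alternatives.

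Members and lists were chosen with earlier results of these data known. The named genes are the RBCS, PETE1, PETC, LHCA and LHCB genes, up to 3 called members per direction and comparison with the largest change, and up to 3 genes per direction of each list. Copy shares, DRT112 and the other genes named were chosen after values were seen. Of the list symbols, 4 belong to other genes in the annotation and were dropped. Symbols and loci come from RefSeq (TAIR10.1). Sequences were not used here.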

Additional observations from a re-analysis of the deposited data

Results flagged for a closer look

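In the 4 untreated WT libraries, 3 of 46 members had a highest value set apart from the other 3 libraries. Chance gives about 1 in 20, which is near this count, if the 4 libraries are of 1 population. They are 2 sets that differ, so that rate is only a guide. PSBW, a small subunit of photosystem II, had 1871 FPKM, PETC 823.6 FPKM and PSAN, a lumenal subunit of photosystem I, 1257 FPKM, each in replicate 1 of set 2.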

How the results depend on the processing

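The replicate numbers did not pair the samples (correlations of deviations from -0.09 to 0.09 over 21 pairs of groups). With the replicate block, 2 members were higher in the salt response of the AtC3H26 OX-labelled line, 10 were called between AtC3H3 OX-labelled and WT libraries with NaCl, 3 between AtC3H26 OX-labelled and WT libraries with NaCl, and 0 were higher and 1 lower in WT set 2 than in set 1. With all 14 libraries in 1 fit, 43 members were lower in the salt response of WT, 3 were higher in that of the AtC3H3 OX-labelled and 2 in that of the AtC3H26 OX-labelled line, 0 were called between AtC3H3 OX-labelled and WT libraries with NaCl, 19 and 26 in the untreated lines (AtC3H3, AtC3H26), 24 were higher in set 2, and the interactions called 16 and 14. In that fit 32.9% of all genes were lower in the salt response of WT. Of all genes, 6.44% were higher and 6.13% lower in untreated AtC3H3 OX-labelled libraries. In untreated AtC3H26 OX-labelled ones, 7.18% were higher and 11.0% lower. With WT set 1 alone, 1 member was higher with NaCl in WT, 4 were called in the untreated AtC3H26 OX-labelled line, and the interactions called 6 and 8. With set 2 alone, 19 and 9 were called in the untreated lines and 27 and 14 in the interactions. Between AtC3H3 OX-labelled and WT libraries with NaCl, 8 were called with a pseudocount of 0.1, 11 with a mean of at least 5 FPKM, 2 with median-ratio scaling, and 0 with quantile normalization, TPM scaling or no filter. Between AtC3H26 OX-labelled and WT libraries with NaCl, 2 were called with no filter and 3 with quantile normalization. In WT set 2 against set 1, 5 members were higher with a pseudocount of 0.1, 9 with a mean of at least 5 FPKM, 12 with quantile normalization, 19 with TPM scaling, 8 with median-ratio scaling and 0 with no filter, which also left 1 lower. TPM scaling gave 3 higher in the AtC3H3 OX-labelled and quantile normalization 2 higher in the AtC3H26 OX-labelled salt response. Of all genes called in set 2 against set 1, 27.7% were higher, and 43.6% with quantile normalization. A count given here or below without the share of all genes beside it is no result about the members alone. The causes were not tested.

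Leaving out 1 library at a time gave 14 to 29 members lower and 0 to 0 higher in the salt response of WT, 22 to 25 lower and 3 to 9 higher in the AtC3H3 OX-labelled line, and 18 to 21 lower and 1 to 2 higher in the AtC3H26 OX-labelled line. It gave 0 to 2 and 0 to 9 calls for the lines against WT with NaCl, 0 to 0 for the untreated lines and the interactions, and 0 to 23 higher and 1 to 2 lower for set 2 against set 1. Directions turned for few members, and under quantile normalization the most abundant genes move only in steps between ranks. In the salt response of WT, PSAE-2 was at -0.17 and LHCB4.3 at 0.069 with set 2 alone, and with 1 library left out PSAE-2 ranged from -0.047 to 0.14 and PSAT1 from -0.080 to 0.29. In the AtC3H3 OX-labelled line, LHCA4 was at -0.25 with quantile normalization (limma adjusted p = 0.00705) and -0.080 with TPM scaling (adjusted p = 0.0268), PSBO1 at -0.082 and -0.085 with the same scalings and from -0.027 to 0.048 with 1 library left out, and LHCA3 at -0.061 with TPM scaling. In the AtC3H26 OX-labelled line, TPM scaling gave -0.0024 for LHCA2 and -0.027 for PSBQ-2, quantile normalization gave 0.26 for RBCS3B, 0.090 for PSBO1 and 0.50 for RBCS1A, and with 1 library left out PSBO1 ranged from -0.020 to 0.015 and RBCS1A from -0.022 to 0.018. PSBR was at -0.028 with quantile normalization between AtC3H3 OX-labelled and WT libraries with NaCl. With WT set 2 alone, the copy shares of LHCB4.3 and RBCS3B moved with NaCl by 0.063 and -0.23 percentage points.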
